A study of Homo sapiens with 6 samples.

Results

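The SR splicing factors described here are the products of 10 genes, SRSF1, SRSF2, SRSF3, SRSF4, SRSF5, SRSF6, SRSF7, SRSF10, SRSF11 and TRA2B. They were taken by symbol from a count table of 58051 Ensembl genes, and all 10 were among the 16974 genes with enough reads to test. RNA was sequenced from DLD-1 cells (a line from a human colorectal adenocarcinoma) carrying an auxin-inducible degron and NeonGreen on both copies of TPR, the nucleoporin that forms the filaments of the nuclear basket. The line is a clone in which the plant F-box protein TIR1, expressed from the RCC1 locus, directs the tagged protein to the proteasome when auxin is added. Both groups carried the tag and TIR1, and both received 200 nM Leptomycin B (LMB), an inhibitor of the export receptor CRM1, for 3 h by the labelled incubation time and the study's methods, although the sample titles of both groups read 2 h. The LMB+auxin group (n = 3) also received 1 mM auxin for the last 2 h, and the LMB group (n = 3) did not. The comparison asks how RNA levels respond to TPR loss while CRM1 is blocked. Libraries without LMB or with auxin alone were not analysed here, so auxin itself and TPR loss cannot be told apart.

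SR proteins join RNA-binding domains to a tail rich in arginine and serine, through which they recruit the splicing machinery to exons. The kinases SRPK and CLK phosphorylate this tail, and dephosphorylated SR proteins that stay on the spliced mRNA can serve as adaptors for NXF1, the main mRNA export receptor. Several SR genes limit their own output through poison exons, cassette exons with an early stop codon whose inclusion sends the transcript to nonsense-mediated decay. NXF1-dependent export does not use CRM1.

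All 10 genes have at least 1 transcript annotated for nonsense-mediated decay in GENCODE 44. A search of these transcripts for internal exons that lie within an intron of the canonical transcript and hold the stop codon found 11 exons in 6 of the 10 genes. The 11 count separately the 449-base and 276-base forms of an SRSF7 exon, which overlap and share an end. In 9 of the 11, in 5 genes, a transcript joins the exon to both neighbouring canonical exons at their own splice sites. A cassette exon is joined in this way. The printed SRSF4 exon, the only one found in that gene, and the 62-base exon of SRSF11 are not joined in this way. Exons with a stop codon are shown because several SR genes are known for poison exons, and because a gene-level count cannot separate them. Whether any exon printed here, that of SRSF4 included, acts as a poison exon was not tested. The longest exon of each gene is printed from its first base to the stop codon, which is in capitals, on the strand of the gene in GRCh38.
SRSF3, intron 3, plus strand, chr6:36599821-36599854: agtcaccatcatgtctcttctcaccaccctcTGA
SRSF4, intron 1, minus strand, chr1:29166009-29166064: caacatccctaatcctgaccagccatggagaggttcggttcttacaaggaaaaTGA
SRSF6, intron 2, plus strand, chr20:43459153-43459304: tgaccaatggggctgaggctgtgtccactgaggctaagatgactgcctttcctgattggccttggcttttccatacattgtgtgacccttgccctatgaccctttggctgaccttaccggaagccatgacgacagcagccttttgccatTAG
SRSF7, intron 3, minus strand, chr2:38749319-38749346: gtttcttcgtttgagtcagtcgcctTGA
SRSF11, intron 2, plus strand, chr1:70231859-70231908: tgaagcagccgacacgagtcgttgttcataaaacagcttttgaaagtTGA
TRA2B, intron 1, minus strand, chr3:185931772-185931852: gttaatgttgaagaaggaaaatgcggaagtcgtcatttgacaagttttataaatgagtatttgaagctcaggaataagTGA

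Each of the 11 exons makes up 0.732% to 11.1% of its gene's exonic bases. The SRSF7 exon above, at 449 bases, is the one with the largest share. No exon met this rule in SRSF1, SRSF2, SRSF5 or SRSF10, although they too have transcripts annotated for decay. The table gives 1 count per gene, so any reads counted from a poison exon are part of the value of that gene. Whether the annotation used for counting held the exons shown was not checked, and inclusion was not measured.

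The libraries held 28261903 to 35992425 counts, and the SR genes took 0.29% to 0.337% of them. Levels are given in CPM, counts scaled to a library size adjusted by TMM, a scaling factor per library. TPR mRNA averaged 167 ± 12.1 CPM with LMB alone and 188 ± 3.89 CPM after auxin (SD, n = 3 for both). It was higher in all 3 pairs with no overlap of the groups. Its edgeR adjusted p was 0.954, or 0.0136 with the replicate number as a block, at 1.13-fold in both fits, and the mRNA does not report on the protein that the degron removes. Of 8 colon epithelial markers, 7 passed the filter and CEACAM5 had 0 to 15 counts, and their summed CPM was 7527 to 7576 in LMB and 7342 to 7945 in LMB+auxin. All 5 markers of other cell types were below the filter, with 0 to 1 counts for PTPRC (leukocytes), 0 to 3 for ALB (hepatocytes), 9 to 18 for PECAM1 (endothelium), 9 to 27 for COL1A1 (fibroblasts) and 18 to 31 for VIM (mesenchymal cells). In the bulk samples, fewer cells of a type and less RNA per cell cannot be told apart.

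None of the 10 SR genes was called as changed in LMB+auxin against LMB, at an adjusted p under 0.05 and at least 1.3-fold (edgeR quasi-likelihood test). Across all tested genes the same rule called 1 (0.00589%), so the count of 0 is near the background. At an unadjusted p under 0.05, 0 SR genes passed, beside 4.37% of all genes, and DESeq2 likewise called 0 SR genes. The 95% interval of the fold change lay within 1.3-fold in either direction for all 10 SR genes, beside 57.1% of all genes. That share takes in genes down to the filter of 1 CPM, while the SR genes averaged 79.8 to 691 CPM. Of the lists described below, all 19 speckle proteins and all 8 NXF1 and adaptor genes also lay within it. So did 20 of 24 hnRNPs, 14 of 15 decay factors, and 7 of 9 kinases and import receptors. Over these 10 intervals the lowest bound was 0.853-fold, for SRSF2, and the highest 1.21-fold, for SRSF3. Differences smaller than these bounds were not resolved with 3 libraries a group.

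**Figure D1:**
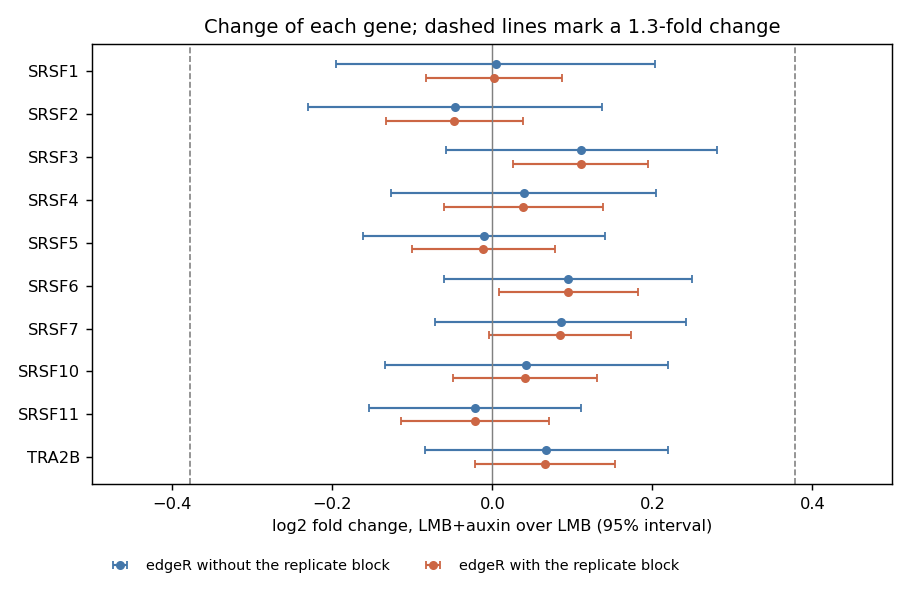
Log2 fold change of LMB+auxin over LMB for each SR gene (points), with the 95% interval (lines), without and with the replicate number as a block, beside dashed lines at 1.3-fold. The intervals of all 10 genes lie inside the dashed lines, and with the block those of SRSF3 and SRSF6 lie above 0.

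Samples of the same replicate number deviated together over all genes, with correlations of 0.531, 0.691 and 0.273 for numbers 1, 2 and 3. Correlations between different numbers ran from -0.573 to 0.146. Deviations from a group mean sum to 0 within the group, so same-number correlations above 0 push the others down. The contrast between the 2 kinds is therefore partly built in. Because same-number samples deviated together, the fit was also made with the number as a block. It called 201 of all genes (1.18%) and 0 SR genes, and 740 genes (4.36%) had an adjusted p under 0.05 with no SR gene among them. At an unadjusted p under 0.05 the block gave 2 SR genes, SRSF3 and SRSF6, beside 19.9% of all genes. A share of 2 in 10 is near that background. The interval stayed within 1.3-fold for all 10 SR genes, beside 75.6% of all genes, with bounds from 0.912-fold for SRSF2 to 1.14-fold for SRSF3. The share over all genes again takes in genes of much lower level.

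SRSF3, SRSF7 and SRSF1 shuttle between nucleus and cytoplasm and are the SR proteins known best as NXF1 adaptors. SRSF3 (ENSG00000112081, chr6:36594353-36605600, plus strand), the smallest of the 10 proteins at 164 residues, was at 671, 624 and 698 CPM in LMB replicates 1 to 3 and at 752, 661 and 740 CPM in LMB+auxin. Each LMB+auxin value was above that of the same number in LMB, while the groups overlapped because LMB replicate 3 exceeded LMB+auxin replicate 2. The SRSF3 means were 665 ± 37.4 and 718 ± 49.6 CPM (SD, n = 3), a log2 fold change of 0.11 (SE 0.0754), that is 1.08-fold, with an edgeR adjusted p of 0.954. When the replicate number was a block, the SRSF3 estimate was 0.11 (SE 0.0425), with an edgeR p of 0.0108 and an adjusted p of 0.12.

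SRSF7 (ENSG00000115875, chr2:38743599-38751494, minus strand), which has a zinc knuckle beside its RNA-binding domain, was at 244, 222 and 233 CPM with LMB alone and at 254, 231 and 256 CPM in LMB+auxin. It too was higher in each of the 3 pairs, with overlapping groups. The log2 fold change of SRSF7 was 0.085 (SE 0.0699) with an adjusted p (edgeR) of 0.954, or 0.273 with the block. SRSF1 (ENSG00000136450, chr17:58000919-58007346, minus strand), the first SR protein described and a factor in 5′ splice site choice, was at 686, 592 and 632 CPM with LMB alone and at 689, 567 and 659 CPM in LMB+auxin. Replicate 1 was highest and replicate 2 lowest in both groups, and the group means of SRSF1 were nearly equal, at 636 ± 47.1 and 638 ± 63.6 CPM. Its log2 fold change was 0.0040 (SE 0.0889), with an edgeR adjusted p of 0.997. Counting bears on SRSF1, since 32.7% of its exonic bases are shared with a coding gene on the same strand, ENSG00000266086. That gene had a mean count of 4684.0, beside 19794.8 for SRSF1, and the part of the shared reads in either value was not tested.

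SRSF2 (ENSG00000161547, chr17:76734115-76737333, minus strand), a mostly nuclear protein that marks nuclear speckles, was at 391, 375 and 428 CPM with LMB alone and at 372, 361 and 422 CPM in LMB+auxin. It was the only SR gene lower in all 3 pairs, beside 20.5% of all genes, and the differences were small, from -0.069 to -0.020 on the log2 scale. Its means of 398 ± 27.3 and 385 ± 32.6 CPM gave a log2 fold change of -0.047 (SE 0.0817) and an adjusted p (edgeR) of 0.966, or 0.556 with the block. Exons of MFSD11, a gene on the opposite strand, cover 27.7% of the SRSF2 exonic bases, and MFSD11 had a mean count of 6301.3 beside 12219.0 for SRSF2. Counting by strand is not stated for these files, so the SRSF2 level is uncertain.

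**Figure D2:**
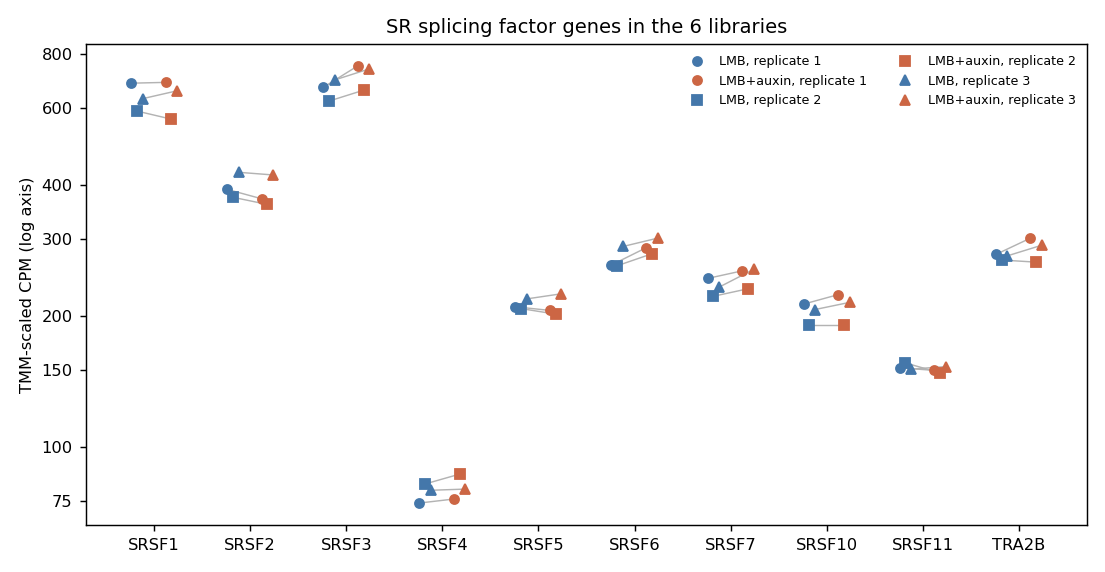
CPM of each SR gene (log axis) in the 3 LMB (blue) and 3 LMB+auxin (orange) libraries, with point shapes for the replicate number and grey lines joining libraries of the same number. For SRSF3, SRSF4, SRSF6 and SRSF7 the auxin end of every line is the higher, for SRSF2 the lower, and the groups overlap in all 10 genes.

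SRSF4, SRSF5 and SRSF6 are close relatives, each with a pair of RNA-binding domains. SRSF6 (ENSG00000124193, chr20:43457893-43466046, plus strand) was at 262, 261 and 289 CPM with LMB alone and at 287, 278 and 302 CPM in LMB+auxin. It was higher in each pair, and LMB replicate 3 reached above LMB+auxin replicates 1 and 2. The log2 fold change of SRSF6 was 0.094 (SE 0.0689), or 1.07-fold, and its edgeR adjusted p was 0.954. In the blocked fit it was 0.095 (SE 0.0441), with an edgeR p of 0.0334 and an adjusted p of 0.206.

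SRSF4 (ENSG00000116350, chr1:29147743-29181900, minus strand), the longest of the 10 proteins at 494 residues, was at 74.3, 82.2 and 79.5 CPM with LMB alone and at 75.9, 86.6 and 80.0 CPM in LMB+auxin. Its pair differences were all above 0, at 0.030, 0.077 and 0.0089 on the log2 scale. The log2 fold change of SRSF4 was 0.039 (SE 0.0739), with an edgeR adjusted p of 0.968. SRSF5 (ENSG00000100650, chr14:69726900-69772005, plus strand) was at 210, 208 and 219 CPM with LMB alone and at 206, 202 and 225 CPM in LMB+auxin. It was lower in pairs 1 and 2 and higher in pair 3, for a log2 fold change of -0.011 (SE 0.0672) and an edgeR adjusted p of 0.991.

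The last group holds SR-like factors: SRSF10, which represses splicing when dephosphorylated, as in heat shock; SRSF11, a regulator first known as p54; and TRA2B, which binds purine-rich exon enhancers. SRSF10 (ENSG00000188529, chr1:23964347-23980927, minus strand) was at 213, 191 and 207 CPM with LMB alone and at 224, 191 and 215 CPM in LMB+auxin. The SRSF10 groups overlapped, and its log2 fold change was 0.042 (SE 0.0788) with an edgeR adjusted p of 0.967. SRSF11 (ENSG00000116754, chr1:70205682-70253052, plus strand) was at 152, 156 and 151 CPM with LMB alone and at 150, 148 and 153 CPM in LMB+auxin. Its 6 values lay closest together of the 10 genes on this scale relative to their level, and the log2 fold change of SRSF11 was -0.022 (SE 0.0592) with an edgeR adjusted p of 0.98. TRA2B (ENSG00000136527, chr3:185914558-185938103, minus strand) was at 277, 269 and 275 CPM with LMB alone and at 302, 266 and 291 CPM in LMB+auxin. The spread was wider in LMB+auxin, with means of 273 ± 4.39 and 287 ± 18.2 CPM, because replicates 1 and 3 lay above the LMB values and replicate 2 below them. The log2 fold change of TRA2B was 0.0675 (SE 0.0676), with an edgeR adjusted p of 0.954.

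As a group, 7 of the 10 SR genes had a log2 fold change above 0 and 3 below it, beside 8359 of 16974 tested genes above 0. The median of the SR genes was 0.041, beside -0.0027 over all tested genes. In 4 SR genes, SRSF3, SRSF4, SRSF6 and SRSF7, all 3 pairs were higher, beside 21.4% of all genes. The groups overlapped in all 10, and they did not overlap in 11.5% of all genes. A count of 0 in 10 without overlap is near that background. The median pair difference of the 10 genes was 0.044 in pair 1, -0.0082 in pair 2 and 0.057 in pair 3, with 7, 4 and 9 genes higher, so the pairs themselves did not share 1 direction. Without LMB+auxin replicate 2 the median of the fitted values was 0.096, without LMB+auxin replicate 1 it was 0.017, and without LMB replicate 1 it was 0.066.

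The SR genes also differed between replicate numbers. The range of the 3 numbers' means exceeded the size of the log2 fold change in 9 of the 10 genes, beside 81.9% of all genes, and in the F test of the number terms 4 of the 10, SRSF1, SRSF2, SRSF3 and SRSF10, had an adjusted p under 0.05, beside 33.7% of all genes. Both shares are near the background. SRSF1 had the widest range, 0.25 on the log2 scale, and SRSF11 the narrowest, 0.0049. Replicate 2 was the lowest of its group in both LMB and LMB+auxin for 8 of the 10 genes, beside 28.7% of all genes, and SRSF4 had its highest value there; this count was chosen after the values were seen, and the 10 genes share the libraries. The summed level of the 10 genes was 3180, 2980 and 3211 CPM in LMB and 3312, 2992 and 3343 CPM in LMB+auxin. The libraries numbered 2 were the lowest in both groups, and both lay below every library numbered 1 or 3.

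**Figure D3:**
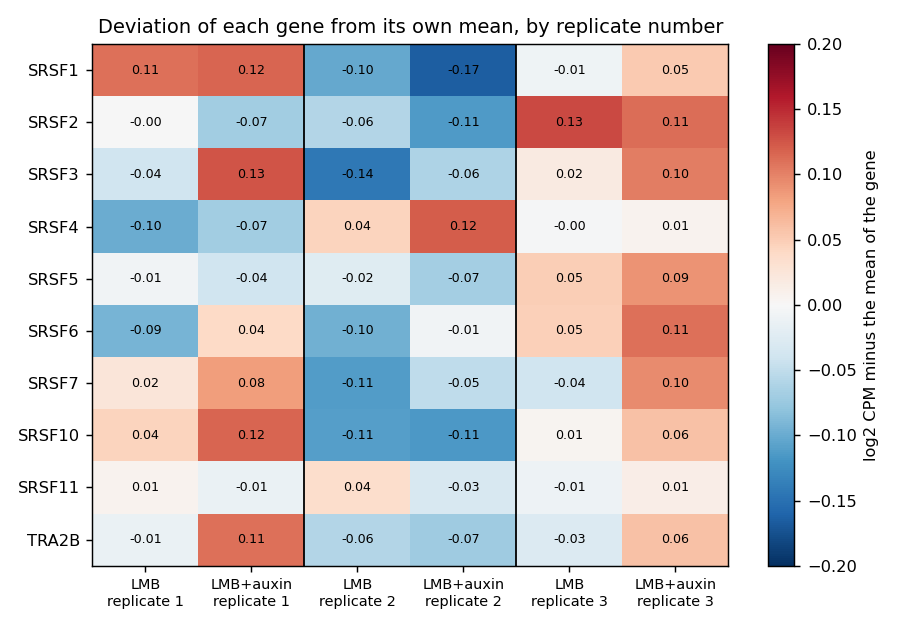
Deviation of each SR gene's log2 CPM from its own mean over the 6 libraries, as a colour map with 1 row per gene and 1 column per library (red above, blue below the mean). The mean over the 10 genes is lowest in the libraries numbered 2, at -0.062 in LMB and -0.056 in LMB+auxin, and highest in LMB+auxin replicate 3, at 0.070.

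Levels were compared between genes per kb of exonic sequence, in LMB. SRSF2 was highest at 134 ± 9.17 CPM per kb, followed by SRSF1 at 110 ± 8.15, SRSF3 at 93.4 ± 5.26 and SRSF7 at 57.6 ± 2.71 CPM per kb (SD, n = 3). SRSF6 at 55.3 ± 3.21 and SRSF5 at 39.7 ± 1.05 CPM per kb came next. TRA2B was at 20.9 ± 0.336, SRSF11 at 18.1 ± 0.289, SRSF10 at 17.2 ± 0.938 and SRSF4 at 8.94 ± 0.452 CPM per kb. Neighbours in this order whose libraries overlapped were SRSF7 and SRSF6, and SRSF11 and SRSF10, in both groups, and SRSF1 and SRSF3 in LMB+auxin. The order depends on the length used: over the length of the canonical transcript SRSF3, at 157 ± 8.85 CPM per kb, and SRSF5, at 142 ± 3.78, stood above SRSF1, at 119 ± 8.82, with SRSF2 still first at 211 ± 14.5.

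Of the other SR family genes, SRSF8, SRSF9 and TRA2A were tested, and SRSF12 had 0 to 2 counts. TRA2A, the paralog of TRA2B, was at 61.0, 64.9 and 61.4 CPM with LMB alone and at 63.6, 65.8 and 70.7 CPM in LMB+auxin. It was higher in all 3 pairs with overlapping groups, and had a log2 fold change of 0.095 (SE 0.0683) and an edgeR adjusted p of 0.954. SRSF8 and SRSF9 had log2 fold changes of 0.033 and 0.031. All 3 were above 0, and none passed the test.

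Genes that act with the SR proteins were counted by role. Of all 16974 tested genes, 8359 had a log2 fold change above 0. Among 19 tested SR-related proteins of nuclear speckles, 13 had a log2 fold change above 0 and 6 below it, with a median of 0.051 and no call in either fit. ARGLU1, an arginine-rich coactivator of splicing, was lowest at -0.16 (edgeR adjusted p with the block 0.0742), and PPIG, a cyclophilin with a tail like that of SR proteins, highest at 0.11 (0.174). Of 8 genes for NXF1 and its other adaptors, 5 were above 0 and 3 below it, between -0.060 for ZC3H3 and 0.065 for THOC5, with no call in either fit. NXF1 itself averaged 72.9 ± 3.51 CPM with LMB alone and 73.1 ± 2.68 CPM after auxin.

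Nonsense-mediated decay factors were split as well, with 8 of 15 above 0 and 7 below it, a median of 0.0018 and no call. They ran from -0.16 for SMG9, a regulator of the kinase SMG1, to 0.11 for MAGOH, a core protein of the exon junction complex. Of 24 hnRNPs, proteins that often oppose SR proteins in splice site choice, 21 were above 0 and 3 below it. The 24 genes share the 6 libraries, so their directions are not independent. Their median was 0.055, from -0.066 for HNRNPH2 to 0.15 for PTBP2. None of the 24 was called in either fit.

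The SR protein kinases and import receptors held the only gene of these lists called in the blocked fit, and no list held a call in the main fit. Of 9 genes, 6 were above 0 and 3 below it with a median of 0.063, and CLK3, a kinase that phosphorylates SR proteins in the nucleus, was that gene. CLK3 was at 196, 140 and 198 CPM with LMB alone and at 256, 229 and 255 CPM in LMB+auxin. All 3 LMB+auxin libraries lay above all 3 LMB libraries, with means of 247 ± 15.4 and 178 ± 33.1 CPM. The log2 fold change of CLK3 was 0.47 (SE 0.1248), and without the block it was not called among the 16974 filtered genes (edgeR adjusted p of 0.954). With the block it was 0.49 (SE 0.0486), and the edgeR adjusted p was 4.8e-12. The same unblocked fit without the filter on low counts called CLK3, at 0.47 with an adjusted p of 1.2e-05. The blocked call was lost without the pair numbered 1 (0.53, adjusted p of 0.191) and kept without pair 2 (0.38, 8.2e-06) or pair 3 (0.55, 1.1e-08). DESeq2 called CLK3 with the block (0.49, adjusted p of 0.00209) and not without it (0.206). CLK3 shares 3.56% of its exonic bases with EDC3 on the opposite strand. CLK4 and CLK1, its close relatives, were the lowest of the list, with log2 fold changes of -0.19 and -0.13 and edgeR adjusted p of 0.107 and 0.1 with the block. CLK2, the remaining CLK gene of the list, was nearly unchanged at 0.0092 (edgeR adjusted p of 0.958 with the block).

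**Figure D4:**
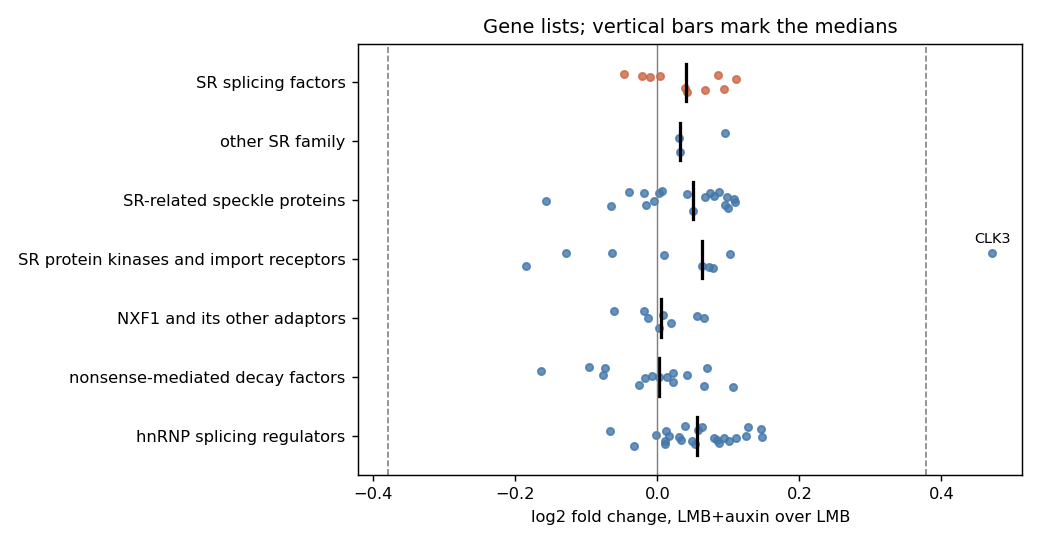
Log2 fold change of LMB+auxin over LMB, without the block, for each gene (points) of the SR splicing factors and of the other lists, with vertical bars at list medians and dashed lines at 1.3-fold. CLK3, at 0.47 in the list of kinases and import receptors, stands apart from the other points, and the list medians lie between 0.0018 and 0.063.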

How the data were processed

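Total RNA depleted of ribosomal RNA was sequenced from 6 libraries, which the study describes as independent biological replicates. The authors deposited whole-number counts per Ensembl gene, not normalized; the submitters' processing notes name CASAVA 1.8.2, STAR 2.6.1c and featureCounts 1.5.2, and the genome was GRCh38. Whether counting used strand is not given in the sources used here. Symbols came from GENCODE 44 (98.1% of IDs), as did the exons, exonic lengths and overlaps. The study's methods name an earlier Ensembl release for counting, so lengths and overlaps may differ from those counted. Genes over 1 CPM in at least 3 libraries were kept (16974), scaled by TMM and tested with edgeR 4.0.16 (quasi-likelihood, R 4.3.3), with Benjamini-Hochberg adjustment. A call needed an adjusted p under 0.05 and a change of at least 1.3-fold. For the correlations between libraries, log2 CPM used a prior count of 2. Pair differences, deviations from a gene's mean, ranges of the replicate numbers and profile differences used log2 CPM without a prior count. Replicate numbers come from the labels and were taken as pairs, since all 3 same-number correlations were above 0.1. Those of LMB 1 with LMB+auxin 3 (0.146) and LMB 3 with LMB+auxin 1 (0.142) were above 0.1 too. That threshold alone therefore does not separate pairs from other combinations. The blocked fit was an alternative, as were DESeq2 1.42.0, limma-voom 3.58.1, other scalings and filters, and leaving out libraries. The script was tested on simulated counts. The members and gene lists were chosen with earlier results of these data known. The text names all 10 SR genes, their family and TPR. Of each other list it names genes with an adjusted p under 0.05 in the fit named, or otherwise the highest and lowest. NXF1, CLK1, CLK2 and CLK4 were named after their values were seen.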

Additional observations from a re-analysis of the deposited data

How the results depend on the processing

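In 19 alternative settings 0 of the 10 SR genes were called, and 0 had an adjusted p under 0.05, the lowest being 0.12. SRSF3, SRSF6, SRSF7 and TRA2B kept a log2 fold change above 0 in each of them. SRSF1 fell below 0 with library size alone (-0.0072), with upper-quartile scaling (-0.0047) and without overlapping genes (-0.0034). Leaving out a library or a pair gave log2 fold changes of -0.0545 to 0.0845 for SRSF1, -0.1122 to 0.0086 for SRSF2, -0.0124 to 0.0823 for SRSF4, -0.0541 to 0.0213 for SRSF5, -0.0069 to 0.1083 for SRSF10, -0.0381 to 0.0070 for SRSF11, 0.0752 to 0.1689 for SRSF3, 0.0681 to 0.1432 for SRSF6, 0.0582 to 0.1321 for SRSF7, 0.0282 to 0.1189 for TRA2B, and of 0.0173 to 0.0964 for the median of the 10 genes. With the replicate block the median was 0.0395, and the block changed no call of an SR gene, though it moved the calls over all genes from 1 to 201; DESeq2 gave 11, or 31 with the block. With the block and without replicate 1 or 3, SRSF1 was at -0.0008 or -0.0221, and without replicate 2 SRSF5 was at 0.0099. TRA2B had its lowest value without LMB+auxin replicate 1 and its highest without LMB+auxin replicate 2, where SRSF3 and SRSF7 were also highest; SRSF6 was highest without LMB replicate 3. Without the filter on low counts, 39 of all genes were called. Gene counts separate neither poison exons nor the overlaps of SRSF1 and SRSF2.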

Other observations

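Genes whose profile over the 6 libraries was most like the mean profile of the 10 SR genes were MAGT1, FAM171B, HP1BP3, EZR-AS1 and PGRMC1, by root mean square difference of centred log2 CPM, among genes with a mean of at least 10 CPM. Their differences were 0.0096 to 0.0126, and those of the SR genes themselves ran from 0.0346 for TRA2B to 0.1065 for SRSF4. The named genes were picked for the smallest differences among many and the SR genes were not, so these ranges cannot be compared. EZR-AS1 is antisense to a coding gene, so its count is uncertain. Of 10 pseudogenes named after SR genes, SRSF3P1 had the highest mean count, 34.0, followed by SRSF6P2 at 17.2. U2AF1, the small subunit of the U2 auxiliary factor, had 18 to 29 counts and was not tested; GRCh38 holds a near-identical copy of it, so its level is uncertain.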
